A study of Mus musculus with 5 samples.

Results

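The genes described are 10 genes of the unfolded protein response and of protein folding in the endoplasmic reticulum (ER), out of 55573 genes counted in each library. They were chosen by name: the transcription factors Atf4, Ddit3 and Xbp1, the heat shock family chaperones Hspa5, Hsp90b1 and Dnajb9, the lectin chaperone Calr, the disulfide isomerases Pdia3 and Pdia4, and the degradation component Herpud1. All 10 passed the filter on low counts. RNA was sequenced from the right hemisphere of C57BL/6 females whose right caudate-putamen had been inoculated, at 7 to 8 weeks of age, with GL261 glioma cells carrying a luciferase/mKate2 vector. Each library therefore holds tumor, brain and immune cells together, and the tumor is a graft of a cultured line. Libraries of 3 mice given antibody dilution buffer (vehicle) and of 2 mice given ultrasound-mediated blood-brain barrier opening (UMBO, pulsed ultrasound after intravenous microbubbles) were compared. Treatments were given on days 21 and 24, and tissue was taken 24 h after the second of them. No antibody is named for either group.

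Secreted and membrane proteins fold in the ER. When unfolded proteins build up there, the sensors IRE1, PERK and ATF6 are activated. PERK slows translation while favouring that of ATF4, a factor that switches on amino acid and stress genes including Ddit3. IRE1 cuts the Xbp1 messenger RNA so that it encodes an active factor, and cleaved ATF6 enters the nucleus. These factors raise the chaperones, isomerases and degradation genes that restore folding. ER chaperones are also abundant in cells that secrete much protein.

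Depth was high and the libraries were unlike each other. Between 59736771 and 86164159 reads were counted in a library, and the lowest count of a member was 1210, for Ddit3 in vehicle 1. The largest principal component held 78.7% of the variance and separated UMBO 2, at 133.7, from the other 4 libraries, which lay between -68.4 and 17.0. UMBO 1, at -14.1, lay between vehicle libraries. No pair of libraries was a repeat of another, with a chi-square per gene of 58.2 to 736 where sampling noise alone gives about 1. None of the neuron, astrocyte or oligodendrocyte markers was at 0 in any library. At this depth that does not tell brain from other tissue, and their summed levels are given further on. The libraries are described as coming from different mice, so the p-values measure the spread between mice. With 3 mice against 2 an exact permutation test over the 10 groupings cannot give a p below 0.1, and the tests are therefore those of edgeR across all genes.

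Levels are given first in CPM (read counts scaled to a common library size by TMM) per kilobase of exon, the scale on which genes can be set beside each other. In vehicle mice Calr was highest, at 143 ± 14.0 (SD, n = 3), followed by Hsp90b1 at 89.5 ± 9.80. Their vehicle ranges did not overlap. Pdia3 at 72.9 ± 11.8 and Hspa5 at 68.0 ± 9.56 came next, and each of these overlapped its neighbours in the order, as Hspa5 did with Atf4 at 44.0 ± 12.5. Below a gap lay Xbp1 at 22.7 ± 1.03, Herpud1 at 22.1 ± 1.10, Dnajb9 at 22.1 ± 0.599 and Pdia4 at 21.1 ± 4.38, whose vehicle ranges all overlapped. Ddit3 was lowest, at 11.2 ± 2.78, and its vehicle range lay below that of Pdia4. In bulk RNA, more cells of a type and more RNA per cell cannot be told apart.

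ER stress factors are known to bind short promoter elements, and the promoters of the 4 genes that held one are shown. Motifs were searched on both strands of the 32851 RefSeq windows of GRCm38.p6 that run from 250 bases before to 50 bases after a start, in which all 10 genes were found. The ER stress element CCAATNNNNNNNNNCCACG was in 39 windows, or 0.119% of all, and 3 of these belonged to Hspa5, Calr and Hsp90b1. The related element ATTGGNCCACG, which shares its last letters with the first and was searched after the other motifs had been counted, was in 0.0365% of windows, Herpud1 included. Hspa5 also held TGACGTGA, a site bound by XBP1 or ATF6 and present in 0.441% of windows. TGACGTGG, which differs from it only in the last letter, was in 0.676% of windows and in none of the 10 genes. Herpud1 also held TGATGNAAN, a C/EBP-ATF site present in 3.95% of windows. A match is a description of letters, not of binding, and a RefSeq start can differ from the start of the GENCODE gene. The 250 bases before each start are given 5′ to 3′ on the gene's strand with the matches in capitals, for Hspa5 (chr2:34771840-34772089, + strand), Hsp90b1 (chr10:86705445-86705694, - strand), Calr (chr8:84846932-84847181, - strand) and Herpud1 (chr8:94386179-94386428, + strand).
Hspa5: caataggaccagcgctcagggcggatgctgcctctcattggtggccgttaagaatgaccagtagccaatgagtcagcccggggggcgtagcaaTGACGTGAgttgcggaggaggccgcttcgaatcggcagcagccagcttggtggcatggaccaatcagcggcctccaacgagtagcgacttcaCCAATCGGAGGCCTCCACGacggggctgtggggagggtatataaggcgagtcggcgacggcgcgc
Hsp90b1: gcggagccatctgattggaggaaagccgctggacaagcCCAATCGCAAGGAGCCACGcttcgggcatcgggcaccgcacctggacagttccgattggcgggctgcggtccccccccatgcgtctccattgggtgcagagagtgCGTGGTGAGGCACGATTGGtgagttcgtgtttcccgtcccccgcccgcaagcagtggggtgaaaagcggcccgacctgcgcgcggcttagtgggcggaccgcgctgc
Calr: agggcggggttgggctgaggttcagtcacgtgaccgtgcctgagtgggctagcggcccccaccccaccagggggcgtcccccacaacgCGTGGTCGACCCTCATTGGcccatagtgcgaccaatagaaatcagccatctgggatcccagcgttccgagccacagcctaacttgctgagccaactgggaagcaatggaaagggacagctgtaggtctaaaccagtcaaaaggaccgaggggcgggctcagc
Herpud1: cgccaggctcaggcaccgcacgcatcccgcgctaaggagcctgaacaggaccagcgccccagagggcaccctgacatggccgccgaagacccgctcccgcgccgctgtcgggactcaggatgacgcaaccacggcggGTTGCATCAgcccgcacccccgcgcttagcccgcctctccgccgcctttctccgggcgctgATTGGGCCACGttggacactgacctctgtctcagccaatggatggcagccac
Counted back from the start, the ER stress element covered bases 65 to 47 of Hspa5 and bases 162 to 144 of Calr, where it read on the opposite strand. Hsp90b1 held it at bases 212 to 194 and, on the opposite strand, at 107 to 89. In Herpud1 the capitals mark bases 113 to 105 (the C/EBP-ATF site, opposite strand) and 52 to 42, and in Hspa5 the earlier capitals mark bases 157 to 150. No match overlapped another in these genes.

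The comparison of UMBO with vehicle asked whether opening the barrier altered gene expression in the tumor-bearing hemisphere. None of the 10 genes passed edgeR's quasi-likelihood test of the groups. After Benjamini-Hochberg adjustment no gene of the 23592 tested passed 0.05 (0.0% called), and the smallest edgeR adjusted p was 0.497. At an unadjusted p under 0.05, 1 of the 10 genes was higher with UMBO, Pdia4, and none was lower, where 5.3% of all genes tested were higher and 2.06% lower. DESeq2 called 39 of 23187 genes after adjustment (0.168%) and none of the 10. The log2 fold change was above 0 for 9 of the 10 and below 0 for Dnajb9, with a median of 0.53 against 0.01 over all genes tested. In no member did both UMBO libraries lie above or below all vehicle libraries, which they did in 11.5% and 11.4% of all genes. The members split into 7 that were high in UMBO 2 and 3 that were nearly level across all libraries, a split made on their values and given as a description.

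**Figure D1:**
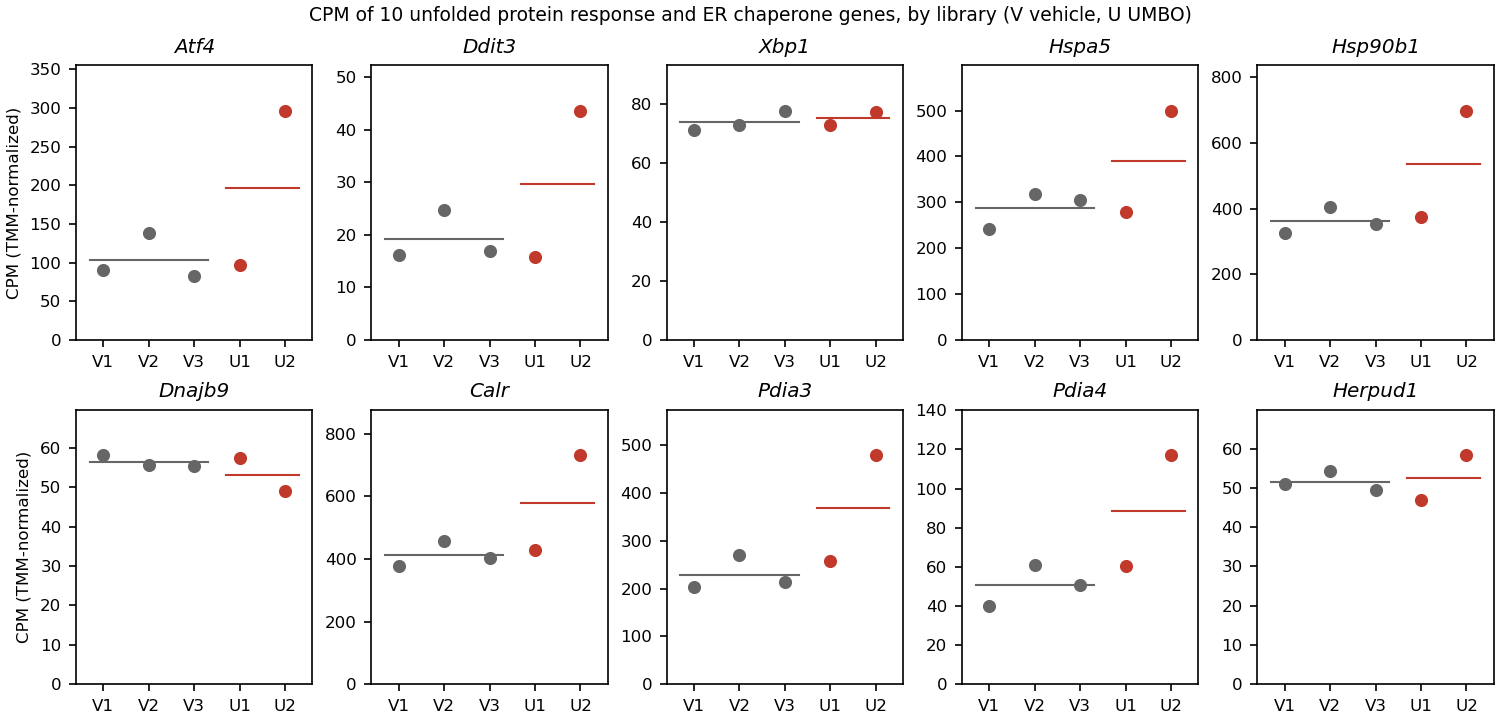
CPM of the 10 genes (y axis, TMM-normalized, starting at 0) in vehicle libraries V1 to V3 and UMBO libraries U1 and U2, with a line at each group mean. UMBO 2 stands above the other libraries in Atf4, Ddit3, Hspa5, Hsp90b1, Calr, Pdia3 and Pdia4, and UMBO 1 lies within or below the vehicle range in all 10.

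Among the transcription factors, Atf4 (chr15:80255184-80257541, + strand), the factor downstream of PERK, varied most of the 10 genes. It stood at 90.9, 138 and 82.7 CPM in vehicle 1 to 3, at 96.6 in UMBO 1 and at 296 in UMBO 2. UMBO 2 was 2.15 times the highest vehicle library, whereas UMBO 1 lay between vehicle libraries. The UMBO group exceeded vehicle by 0.92 ± 0.488 (SE) on the log2 scale (edgeR adjusted p = 0.497). Without UMBO 2 the difference was -0.10.

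Ddit3 (chr10:127290774-127296288, + strand) encodes CHOP, a factor linked to cell death under lasting ER stress. Vehicle 1 to 3 gave 16.2, 24.7 and 16.9 CPM, UMBO 1 gave 15.8 and UMBO 2 gave 43.6. UMBO 1 was the lowest of the 5 libraries and UMBO 2 the highest, so the UMBO pair enclosed every vehicle value. Its log2 fold change of 0.62 ± 0.442 (SE; edgeR adjusted p = 0.512) became -0.29 without UMBO 2. The annotation holds another gene model named Ddit3, to which no read was counted in any library, and 6.13% of the exonic bases are shared with it and 4.73% with genes on the opposite strand.

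Xbp1 (chr11:5520659-5525893, + strand) was the most even of the 10 genes. It stood at 71.2, 72.8 and 77.6 CPM in the vehicle libraries, 73.0 in UMBO 1 and 77.3 in UMBO 2. The highest library was 1.09 times the lowest, a smaller ratio than in all but 0.581% of the genes tested, and both UMBO libraries lay inside the vehicle range. Between the groups the log2 fold change was 0.03 ± 0.156 (SE; edgeR adjusted p = 0.937). A read count per gene adds up both forms of the Xbp1 message, so it does not measure cutting by IRE1. The excised segment lies in the coding part of exon 4 of 5 and is shown because the counts cannot tell whether it was removed. It was located as 26 bases between matches to CNGCAGN, the loop that IRE1 cuts after the third base, and the capitals run from one cut to the other (GENCODE M21, GRCm38, chr11:5524269-5524311, + strand). Of 2 such pairs of matches at this distance in the transcript, the other lies in exon 1.
Xbp1: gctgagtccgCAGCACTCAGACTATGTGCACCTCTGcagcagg

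Of the heat shock family chaperones, Hspa5 (chr2:34771970-34777547, + strand) encodes BiP, the ER chaperone that holds the sensors inactive until unfolded proteins draw it away. It stood at 242, 318 and 304 CPM in vehicle 1 to 3, at 279 in UMBO 1 and at 499 in UMBO 2. Only UMBO 2 lay outside the vehicle range, at 1.57 times the highest vehicle value. The groups differed by 0.44 ± 0.310 (SE; edgeR adjusted p = 0.512) on the log2 scale, and by -0.04 without UMBO 2.

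Hsp90b1 (chr10:86690209-86705509, - strand) encodes GRP94, the HSP90 of the ER. It stood at 326, 404 and 352 CPM in the vehicle libraries, 375 in UMBO 1 and 697 in UMBO 2, so that again only UMBO 2 was outside the vehicle range. A log2 fold change of 0.57 ± 0.317 (SE; edgeR adjusted p = 0.497) was left at 0.06 without UMBO 2. Of its exonic bases, 5.38% are shared with genes on the same strand and 10.3% with 1810014B01Rik on the opposite strand, and whether counting used strand is not stated.

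Dnajb9 (chr12:44205559-44210326, - strand) encodes ERdj4, a co-chaperone of BiP and a known XBP1 target. Its level was 58.1, 55.7 and 55.3 CPM in vehicle 1 to 3, 57.3 in UMBO 1 and 49.0 in UMBO 2. It was the one member lowest in UMBO 2, at 0.843 of the highest vehicle library, and its ratio of highest to lowest library, 1.19, was smaller than in all but 4.95% of genes. Its log2 fold change was -0.08 ± 0.158 (SE; edgeR adjusted p = 0.780), and 0.03 with scaling by library size only.

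The lectin chaperone and both isomerases had the same order of libraries. Calr (chr8:84841850-84846934, - strand) encodes calreticulin, which binds the sugar chains of new glycoproteins and also loads peptides on MHC class I. It stood at 377, 456 and 402 CPM in the vehicle libraries, 429 in UMBO 1 and 731 in UMBO 2. UMBO 1 was inside the vehicle range and UMBO 2 was 1.60 times its top. On the log2 scale UMBO exceeded vehicle by 0.49 ± 0.294 (SE; edgeR adjusted p = 0.497), and by 0.06 without UMBO 2.

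Pdia3 (chr2:121413775-121438687, + strand) encodes ERp57, the isomerase that works with calreticulin in glycoprotein folding and in peptide loading. Its level was 203, 271 and 213 CPM in vehicle 1 to 3, 257 in UMBO 1 and 479 in UMBO 2. UMBO 1 was below vehicle 2 and above the other vehicle libraries. The log2 difference was 0.69 ± 0.321 (SE; edgeR adjusted p = 0.497), and 0.17 without UMBO 2.

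Pdia4 (chr6:47796141-47813430, - strand) encodes ERp72, another disulfide isomerase. It stood at 40.1, 61.1 and 50.7 CPM in the vehicle libraries, 60.3 in UMBO 1 and 117 in UMBO 2. UMBO 1 was just below vehicle 2, which kept the groups from separating. The log2 difference was 0.81 ± 0.327 (SE; edgeR adjusted p = 0.497), and 0.25 without UMBO 2. Its unadjusted p was just under 0.05. Leaving out vehicle 1, vehicle 3 or UMBO 2 ended this unadjusted call.

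Herpud1 (chr8:94386438-94395377, + strand) encodes an ER membrane protein of the complex that exports misfolded proteins for degradation. Its level was 51.0, 54.4 and 49.4 CPM in vehicle 1 to 3, 46.9 in UMBO 1 and 58.3 in UMBO 2. UMBO 1 was the lowest library and UMBO 2 the highest, over a span of 1.24 times that was smaller than in all but 8.63% of genes. A log2 fold change of 0.03 ± 0.171 (SE; edgeR adjusted p = 0.938) became -0.14 without UMBO 2.

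**Figure D2:**
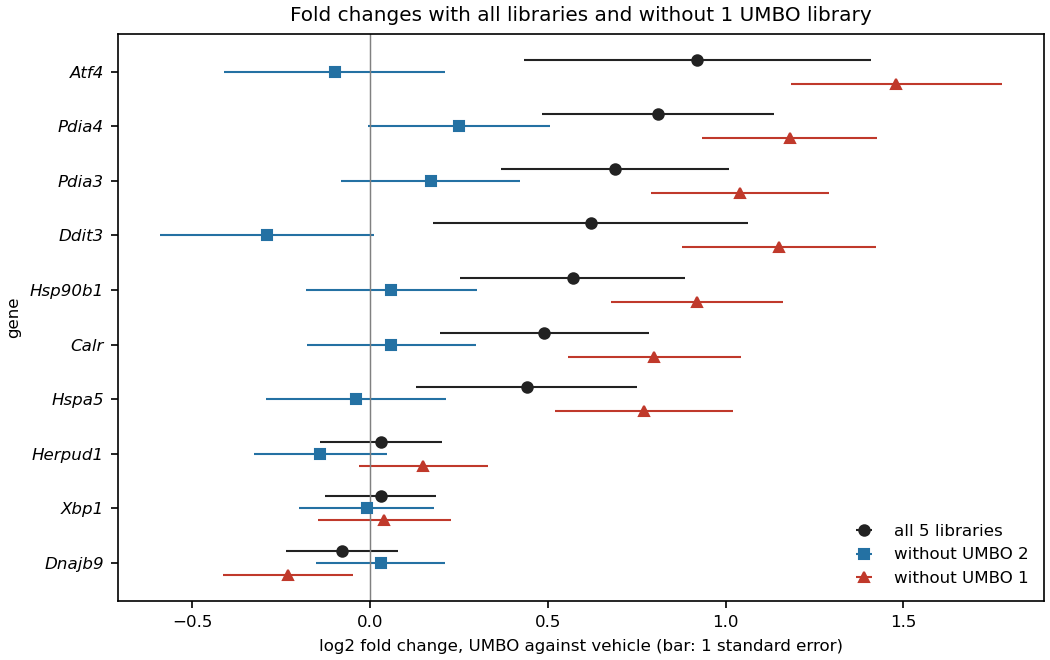
Log2 fold change of UMBO against vehicle (x axis; bars, 1 standard error from edgeR) for the 10 genes, with all 5 libraries (circles), without UMBO 2 (squares) and without UMBO 1 (triangles). Atf4 moves from -0.10 without UMBO 2 to 1.48 without UMBO 1, whereas Xbp1, Herpud1 and Dnajb9 stay within 0.25 of 0 in each.

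The libraries did not fall into their groups in these genes. UMBO 2 was above the highest vehicle library in 8 of the 10 genes, below the lowest in Dnajb9 and inside the vehicle range in Xbp1. Over all genes tested it was above in 42.2% and below in 41.6%. UMBO 1 was inside the vehicle range in 8 genes and below it in Ddit3 and Herpud1, and over all genes it was inside in 63.4%. Vehicle 2 was the highest vehicle library in 8 of the 10 genes, against 39.3% of all genes.

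Relative to the vehicle mean, the median of the 10 genes on the log2 scale was -0.15, 0.16 and -0.03 in vehicle 1 to 3, 0.01 in UMBO 1 and 0.89 in UMBO 2. The ratio of UMBO 2 to the vehicle mean was 2.85 for Atf4, 2.31 for Pdia4, 2.26 for Ddit3, 2.09 for Pdia3, 1.93 for Hsp90b1, 1.78 for Calr and 1.74 for Hspa5. It was 1.13 for Herpud1, 1.05 for Xbp1 and 0.869 for Dnajb9. The genes whose promoters are printed above were found in both sets. Hspa5, Hsp90b1 and Calr, with the ER stress element, were high in UMBO 2, as were Pdia3 and Pdia4, without a match to any motif searched. Herpud1, with the related element, was nearly level.

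Single libraries decided these values. Without UMBO 2 the 10 genes had a median log2 fold change of 0.01, and none had an unadjusted p under 0.05. Without UMBO 1, so that UMBO 2 stood alone against vehicle, the median was 0.86. The log2 fold changes then ran from -0.23 for Dnajb9 to 1.48 for Atf4. That fit takes the lone UMBO library to vary as the vehicle mice do. Without vehicle 2, both UMBO libraries lay above the remaining vehicle libraries in 5 of the 10 genes, where 30.1% of all genes tested did so with the same library left out.

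Other genes of the pathway were grouped in 6 lists by role, and the counts below are set against the same background of 5.3% higher and 2.06% lower at an unadjusted p under 0.05 and of 11.5% with both UMBO libraries above all vehicle libraries. No gene of any list passed the edgeR adjusted threshold, and none was lower at an unadjusted p under 0.05. These shares are for all 5 libraries, where 1251 genes were higher at an unadjusted p under 0.05. At that threshold 194 of all genes were higher without vehicle 1 and 217 without vehicle 3, so counts fell generally. Differences are log2 fold changes with their SE. Of the 6 sensors and their proteases, 2 had a log2 fold change above 0 and 4 below, with a median of -0.21 and no unadjusted p under 0.05. Ern1, which encodes IRE1, stood at 14.6, 16.7 and 16.4 CPM in the vehicle libraries, 18.8 in UMBO 1 and 25.4 in UMBO 2. It was the one sensor in which both UMBO libraries lay above all vehicle libraries (log2 fold change 0.47 ± 0.204 SE; edgeR adjusted p = 0.497). Atf6 stood at 101, 58.7 and 65.1 CPM in vehicle 1 to 3, 63.9 in UMBO 1 and 39.3 in UMBO 2, its lowest value (-0.54 ± 0.329; edgeR adjusted p = 0.497). Eif2ak3, which encodes PERK, gave -0.24 ± 0.230, and Mbtps1, a protease that cleaves ATF6, gave -0.22 ± 0.197.

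The list of genes known to follow ATF4 had a log2 fold change above 0 in 16 of 17 genes, their median being 0.83, and 6 genes were higher at an unadjusted p under 0.05. That count was 1 without vehicle 1 and 0 without vehicle 3. Without UMBO 1 the median was 1.28. Aldh1l2, a mitochondrial folate enzyme, had both UMBO libraries above vehicle, at 14.5 and 25.7 CPM against 6.11, 11.7 and 8.09 (log2 fold change 1.22 ± 0.367). So did Ddit4, an inhibitor of mTORC1 that also answers to low oxygen and glucocorticoids, at 48.1 and 67.2 CPM against 29.2, 40.9 and 27.1 (0.83 ± 0.252). Without UMBO 2 these were 0.75 and 0.57, and the median of the list was 0.16. Of the exonic bases of Aldh1l2, 14.1% are shared with D10Wsu102e on the opposite strand. Sesn2, a leucine sensor, gave 0.93 ± 0.35 with UMBO 1 below vehicle 2. Of the list, 3 genes had both UMBO libraries above all vehicle libraries.

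Beyond the 10 genes, the other ER folding genes had a lower median, though 14 of 19 were highest in UMBO 2, against 40.4% of all genes. Of 19, 14 had a log2 fold change above 0 and 5 below, with a median of 0.20 and none at an unadjusted p under 0.05. Sdf2l1, a partner of BiP co-chaperones, gave 1.05 ± 0.455 and stood at 38.1 CPM in UMBO 2, 15.6 in UMBO 1 and 8.75 to 18.0 in the vehicle libraries. Creld2 and the disulfide isomerase P4hb gave 0.94 ± 0.425 and 0.83 ± 0.377, with UMBO 1 inside the vehicle range in each.

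The degradation list, to which Herpud1 is related, had a median of 0.10 over 14 genes, with 10 above 0, 4 below and 2 at an unadjusted p under 0.05. Both UMBO libraries lay above all vehicle libraries in 5 of the 14, against 11.5% of all genes. Neither unadjusted call held without vehicle 1, vehicle 3 or UMBO 2. Edem1, a lectin that directs misfolded glycoproteins to export, stood at 29.2, 36.9 and 30.5 CPM in the vehicle libraries, 39.1 in UMBO 1 and 59.8 in UMBO 2 (log2 fold change 0.62 ± 0.234). Its relative Edem2 gave 0.56 ± 0.221, and Derl1, a membrane component of the export channel, gave 0.30 ± 0.162.

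The translocon and N-glycosylation genes bring new proteins into the ER and attach sugars. Their median was 0.52 over 19 genes, with 16 above 0 and 2 at an unadjusted p under 0.05. That count was 0 without vehicle 1 or vehicle 3. The median was 0.12 without UMBO 2 and 0.75 without UMBO 1. The 2 genes were the translocon subunits Sec61b (1.34 ± 0.509) and Sec61a1 (0.59 ± 0.230), and the remaining subunit Sec61g gave 0.96 ± 0.415. In Sec61a1 both UMBO libraries lay above vehicle, at 80.2 and 123 CPM against 63.7 to 74.6.

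Cytosolic heat shock genes, which serve folding outside the ER, were above 0 in 8 of 8, with a median of 0.84 and 4 at an unadjusted p under 0.05. Hspa1b, an inducible HSP70, stood at 4.99, 4.54 and 4.71 CPM in the vehicle libraries, 6.63 in UMBO 1 and 81.9 in UMBO 2 (log2 fold change 3.22 ± 0.899; edgeR adjusted p = 0.497, DESeq2 adjusted p = 0.0407). Hspa1a, its near-identical copy, with which reads may be exchanged, stood at 4.77 to 5.19 CPM in the vehicle libraries, 5.17 in UMBO 1 and 82.7 in UMBO 2. Of the exonic bases of Hspa1a, 19.0% are shared with Gm20481 on the opposite strand. The small heat shock gene Hspb1 gave 1.63 ± 0.564. Without UMBO 2 the median of the list was 0.14 and no gene was at an unadjusted p under 0.05. Without vehicle 1 or vehicle 3 there was 1.

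**Figure D3:**
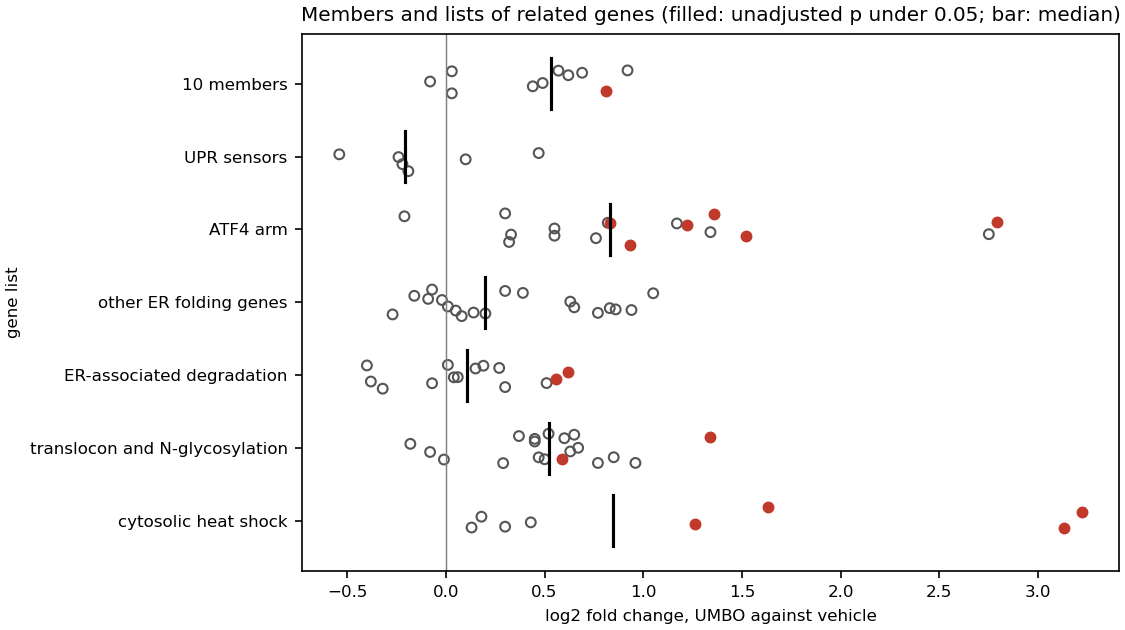
Log2 fold change of UMBO against vehicle (x axis) of the 10 genes and of each gene of the 6 lists (points, spread vertically for legibility), with a bar at each median and filled points where the unadjusted edgeR p is under 0.05. The medians run from -0.21 in the sensors to 0.84 in the cytosolic heat shock list, and no gene passes the adjusted threshold.

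Markers of cell types and of division moved with UMBO 2 in the same libraries. The summed CPM of 10 proliferation genes was 48.1, 112 and 34.0 in vehicle 1 to 3, 114 in UMBO 1 and 499 in UMBO 2, and all 10 were higher at an unadjusted p under 0.05. Without vehicle 1, vehicle 3 or UMBO 2, only 1 of them was. The sum of 8 monocyte and macrophage markers was 42.7, 129 and 69.4 in vehicle, 129 in UMBO 1 and 486 in UMBO 2, with 4 of 8 higher at that threshold, but 2 without vehicle 1, 1 without vehicle 3 and 0 without UMBO 2. In both sums vehicle 2 was the highest vehicle library, as in 8 of the 10 ER genes, and UMBO 1 was close to it.

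Neuronal markers were lowest in UMBO 2, with a sum of 8720, 5740 and 6140 CPM in vehicle, 6100 in UMBO 1 and 2890 in UMBO 2, and 7 of 8 had a log2 fold change below 0, none at an unadjusted p under 0.05. Oligodendrocyte markers summed to 5740 to 5910 in vehicle, 6150 in UMBO 1 and 5250 in UMBO 2. Their log2 fold changes were near 0, from -0.1 to 0.19 with a median of -0.04, and 5 of 6 were below 0. Astrocyte markers summed to 3400 to 4630 in vehicle, 5270 in UMBO 1 and 3290 in UMBO 2, with 1 of 7 higher at an unadjusted p under 0.05. Markers of the choroid plexus, a secretory epithelium, summed to 809 to 835 in vehicle, 858 in UMBO 1 and 496 in UMBO 2, and 6 of 7 were below 0.

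The sums of microglia, fibroblast and endothelial markers were higher in both UMBO libraries than in any vehicle library. Microglia markers summed to 289 to 429 CPM in vehicle and to 583 and 694 in UMBO 1 and 2, with 5 of 8 higher at an unadjusted p under 0.05. Fibroblast markers summed to 98.9 to 141 in vehicle and to 220 and 252 in UMBO, with 4 of 6 higher at that threshold, and endothelial markers summed to 118 to 166 and to 205 and 221, with 3 of 6. Without vehicle 1 these counts were 2, 2 and 1, without vehicle 3 they were 2, 3 and 2, and without UMBO 2 they were 3, 3 and 1. Plasma cells, known for abundant ER chaperones, had low marker sums of 4.22 to 7.70 in vehicle, 5.73 in UMBO 1 and 16.7 in UMBO 2. Of these 6 markers, 5 had a log2 fold change above 0 and 1 below, with a median of 0.25. Of the UMBO 2 sum, 14.0 came from Sdc1, which other cells also express, while the plasma cell gene Jchain stood at 1.34 to 2.49 in vehicle and at 1.02 and 0.992 in UMBO 1 and 2. No marker of any list was at 0 in any library. The part of cell composition and of proliferation in the values of the 10 genes was not tested.

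**Figure D4:**
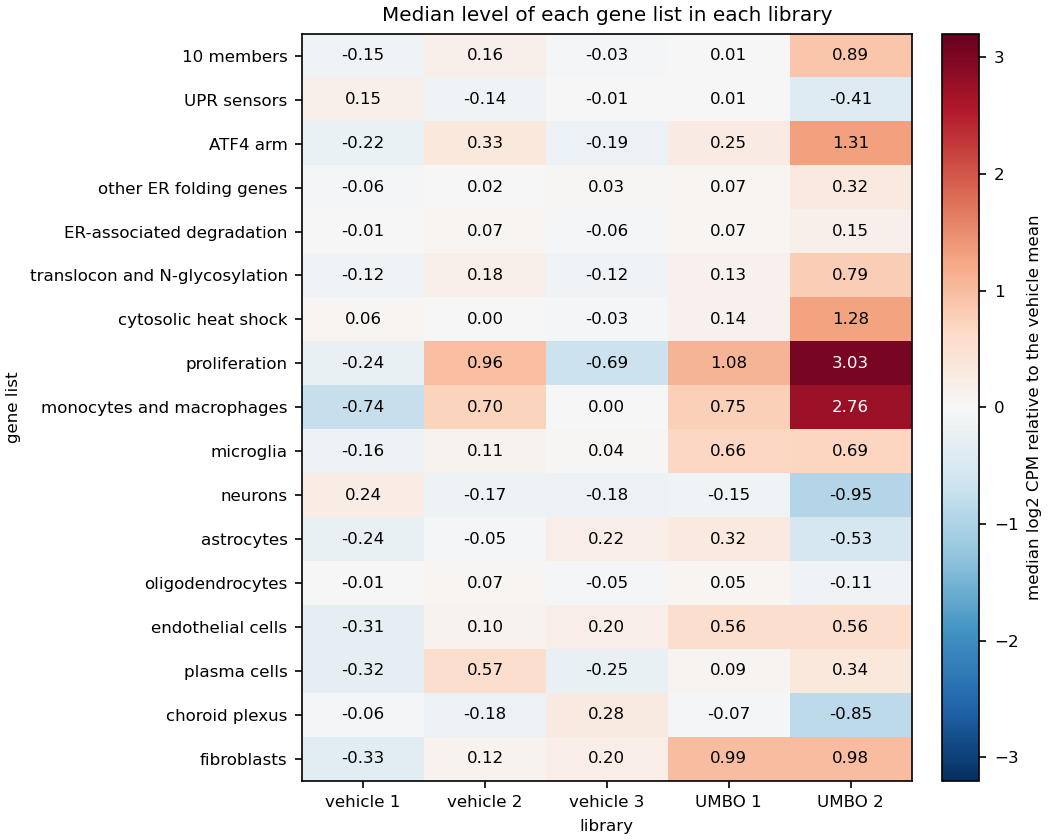
Median log2 CPM of each gene list relative to the vehicle mean (color and printed number) in each of the 5 libraries (x axis), for the 10 genes, the 6 lists of related genes and 10 marker lists (y axis). UMBO 2 holds the highest median of the 10 genes (0.89) and of the proliferation (3.03) and monocyte and macrophage (2.76) markers, and the lowest of the neuronal markers (-0.95).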

How the data were processed

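RNA of tumor-bearing right hemispheres was sequenced, and 3 vehicle and 2 UMBO libraries were grouped and numbered by their labels. Per the submitters' processing notes and the paper, the authors mapped reads with STAR 2.7.2a to GRCm38 (mm10) and deposited raw counts of reads per Ensembl gene, without normalization, 1 table per library. The annotation release and whether counting used strand are not given in the sources used here. Symbols (found for 55394 of 55573 genes) and positions were taken from GENCODE M21, on the same build.

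Counts were scaled by TMM, filtered with filterByExpr and compared in edgeR 4.0.16 (R 4.3.3) by its quasi-likelihood test over 23592 genes, at a Benjamini-Hochberg adjusted p of 0.05 (common dispersion 0.118). Standard errors were derived from the fold change and its F statistic. Per-library medians used log2 CPM with a prior count of 2. The script was also run on simulated counts in which each gene varied independently. In these data the largest principal component held 78.7% of the variance, so that run does not show how calls behave here. Promoter windows were taken from RefSeq.

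The 10 genes and all lists were chosen with earlier results of these data known. Genes named beside them are Ern1, Eif2ak3, Atf6 and the 3 genes with the smallest p of each list, except Jchain and Sdc1, which were chosen after their values were seen. Alternatives covered the scaling, the filter, DESeq2 1.42.0, the replicate number as a block and each library left out in turn. With 2 UMBO libraries, the number of mice limits the precision.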

Additional observations from a re-analysis of the deposited data

How the results depend on the processing

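The sign of 6 of the 10 members rested on UMBO 2. Without it the log2 fold change was -0.10 for Atf4, -0.29 for Ddit3, -0.04 for Hspa5, -0.01 for Xbp1, 0.03 for Dnajb9, -0.14 for Herpud1 and 0.01 for Eif2ak3. Without UMBO 1 it was 1.48 for Atf4, 1.15 for Ddit3, 0.77 for Hspa5, -0.23 for Dnajb9, 0.15 for Herpud1 and -0.57 for Eif2ak3. Xbp1 was at 0.00 without vehicle 1, Herpud1 at 0.00 without vehicle 3 and at -0.01 with the replicate block, and Dnajb9 at 0.03 with library size only. No other gene named by the rule changed sign under any alternative run. Under library-size scaling the median went from 0.01 to 0.13 over all genes and from 0.53 to 0.66 over the 10 genes. It went to 0.32 for the other ER folding genes and to 0.22 for ER-associated degradation. That scaling leaves out the TMM factors, which were 0.912, 1.01 and 0.983 for vehicle 1 to 3 and 1 and 1.1 for UMBO 1 and 2. Such a factor acts on all genes of a library alike. Of the other values of the named genes, 279 kept their direction and their side of the adjusted threshold, and 29 passed it, without UMBO 1, with the replicate block or, for Hspa1b, with DESeq2.

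Leaving out each library in turn gave medians of 0.01 to 0.86 for the 10 genes, -0.44 to 0.00 for the sensors, 0.16 to 1.28 for the ATF4 list, 0.06 to 0.29 for other ER folding, 0.08 to 0.19 for degradation, 0.12 to 0.75 for translocon and N-glycosylation and 0.14 to 1.23 for cytosolic heat shock. The number of the 10 genes at an unadjusted p under 0.05 ran from 0 to 7 and was 3 with no filter on low counts. The number not overlapping between groups, in either direction, ran from 0 without vehicle 1 to 9 without UMBO 1, where UMBO 2 alone was above vehicle in 8 and below in 1, against 42.2% and 41.6% of all genes. It was 2 without UMBO 2, both below, where 17.9% of all genes were below and 18.6% above. Over all genes, 0 to 4543 passed the adjusted threshold, the latter without UMBO 1, and 296 (without vehicle 1) to 10165 (without UMBO 1) had an unadjusted p under 0.05, with 432 without vehicle 3, 455 without UMBO 2 and 2674 without vehicle 2. DESeq2 gave 39 adjusted calls, 26 of them higher, and 2738 unadjusted ones. No filter on low counts gave 4100 unadjusted calls.

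The groups share only the replicate numbers 1 and 2, which nothing in the labels ties to a litter, cage or day. Deviations from the group means correlated at 0.453 for number 1 and 0.76 for number 2. With 2 UMBO libraries, their deviations are equal and opposite. The correlations therefore reuse the same UMBO deviation and are not independent of each other. With the replicate block 2337 of the 23592 genes tested passed the adjusted threshold. An unadjusted p under 0.05 was found for 3 of the 10 genes and for 6134 of the 23592. Pdia4 then had an edgeR adjusted p of 0.0229 with Benjamini-Hochberg adjustment, against 0.497 without the block. Vehicle 3 shares its number with no UMBO library, so the group difference under the block rests on libraries numbered 1 and 2. That fit has almost as many terms as libraries, which leaves little to measure spread from. Whether the numbers pair mice was not tested.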
